A study of Arabidopsis thaliana with 8 samples.

Results

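NO TRANSMITTING TRACT (NTT or WIP2, AT3G57670), WIP4 (AT3G20880) and WIP5 (AT1G51220) were taken from the count tables by gene identifier and not by a rule on their values. Earlier results of these data were known when the genes were chosen. The members are 3 of the 33668 features in the tables and 3 of the 32222 nuclear genes on which all levels were computed. NTT had reads in 135 of 534 retained nuclei, WIP4 in 116 and WIP5 in 19. Of the 3, WIP5 thus had by far the fewest nuclei to describe.

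The 3 genes encode zinc finger transcription factors of the WIP family, which is named after a tryptophan-isoleucine-proline motif that precedes the zinc fingers. Together they are known for the root pole of the embryo. There, the auxin response factor MONOPTEROS (MP) acts upstream of them, and loss of all of them leaves the hypophysis unable to found the distal root meristem. The hypophysis is the uppermost cell of the basal lineage, of which the other descendants form the suspensor, and it divides into the precursors of the quiescent center (QC) and of the columella. WUSCHEL RELATED HOMEOBOX 5 (WOX5, AT3G11260) is the classical QC gene and was followed beside them. NTT is also known from the pistil, where it is required for the transmitting tract through which pollen tubes grow.

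The data are single-nucleus mRNA-seq (snRNA-seq) libraries made with the Smart-seq2 protocol from nuclei of globular Arabidopsis thaliana embryos, sorted one to a well on 8 plates of 93 wells. All plants were Columbia (Col-0) wild type grown alike, and the labels name the transgenes pWOX2::H2B-GFP and pWOX2::tdTomato-RCI2b, or none, so that embryo nuclei could be picked by GFP and DAPI gates. Seeds were taken 72 h after pollination. Of 744 wells, 534 (71.8%) held at least 100000 counts and 1000 detected features and were retained, with 46 to 83 nuclei and 21257765 to 50998340 counts to a plate. There was 1 genotype and no treatment, so the groups compared below are classes of nuclei within plates, and the plate is the replicate. The labels do not say whether plates came from separate seed collections, so p-values measure the spread between plates, which may be technical.

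The stretch that runs from the WIP motif into the first zinc finger is shown for each gene, because the genes were counted by matching reads to transcripts and the members resemble each other there. Base-by-base identity was compared in this stretch only. Each run covers 93 bases in 5′ to 3′ direction on the gene's own strand, from the WIP motif to the end of the first coding exon, with the codons of the motif in capitals (RefSeq, build TAIR10.1). NTT lies at chr3:21371542-21371634 on the plus strand, WIP4 at chr3:7314977-7315069 on the minus strand and WIP5 at chr1:18991453-18991545 on the minus strand.
NTT: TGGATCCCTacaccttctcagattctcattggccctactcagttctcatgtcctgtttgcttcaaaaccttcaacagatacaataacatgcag
WIP4: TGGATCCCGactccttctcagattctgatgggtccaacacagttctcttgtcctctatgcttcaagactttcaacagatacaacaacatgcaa
WIP5: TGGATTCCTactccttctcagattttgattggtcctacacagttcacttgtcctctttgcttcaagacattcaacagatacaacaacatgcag

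NTT and WIP4 matched at 84.9% of these bases, NTT and WIP5 at 87.1%, and WIP4 and WIP5 at 90.3%. The longest run shared by whole transcripts was 27 bases, between WIP4 and WIP5, and 20 bases for both pairs with NTT. None of these longest runs lay wholly within the stretch shown. No stretch of 31 bases was shared between any pair of the 3, while reads were 50 bases long. Of the other family members compared, WIP3 (AT1G08290) shared 8 such stretches with NTT in a run of 38 bases, and WIP1 (AT1G34790) shared 2 with WIP4 in a run of 32 bases, both shorter than an untrimmed read. Each of the 3 genes has 2 exons and overlaps no other annotated gene. The gene models span chr3:21370757-21373591 for NTT, chr3:7313538-7315883 for WIP4 and chr1:18989751-18992149 for WIP5.

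Nuclei were grouped by clustering on 1000 variable genes, from which the WIP genes and WOX5 were left out, and clusters were named from marker genes. The 10 clusters gave 34 QC/columella-like, 127 suspensor-like (in clusters of 41 and 86), 71 protoderm-like, 35 vascular-like, 61 dividing-like and 38 seed-coat-like nuclei, and 168 nuclei in 3 clusters that stayed unnamed. In the QC/columella-like nuclei, the auxin exporter gene PIN4 had reads in 88.2%, the root stem cell regulator JKD in 79.4% and the AP2-type regulators PLT1 and PLT2 in 67.6% and 61.8%. PLT3 went against the name, with reads in 8.82% of these nuclei and in 51.4% of vascular-like nuclei. PLT1 also had a higher share in vascular-like nuclei (91.4%). The marker BBM had similar shares in QC/columella-like (73.5%), vascular-like (74.3%) and suspensor-like nuclei (74%). As a set, the QC and columella markers led by 3.26 on the log2 scale in the QC/columella-like cluster, with 10 of 11 higher by 10 percentage points. They led by 1.41 in the vascular-like cluster, with 6 of 11 higher. WOX5, which was not among the clustered genes, had reads in 67.6% of QC/columella-like nuclei (23 of 34) against 7.48% of other embryonic nuclei (22 of 294). This clustering was 1 of 6 settings tried and was chosen after the shares of the members had been seen. With each nucleus put in the class of its highest marker score instead, 72 were QC/columella-like, with WOX5 reads in 50%. The clustered QC/columella-like class holds 2 to 9 nuclei to a plate, and its markers do not separate QC from columella. Suspensor markers were present in it, with 10 of 10 at a higher share than in embryo-proper-like nuclei (5.88 to 58.8%, median 26.5%, against 0.599 to 13.8%), and their part in the values of NTT and WIP4 there was not tested. Protoderm markers were raised in it too, by 0.94 on the log2 scale with 5 of 10 higher by 10 percentage points. That alone would meet the limits for a name, and compares with 1.13 in the protoderm-like cluster. The class is thus mixed in its markers. The protoderm-like cluster had 6 of 10 protoderm markers higher, but its 10 leading genes held more mitotic genes (TOPII, POK1 and POK2 among them) than protoderm genes (PDF1 and LTP3). It was tested only when pooled with vascular- and dividing-like nuclei.

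NTT and WIP4 were detected mainly in 2 classes, QC/columella-like and suspensor-like, and WIP5 mainly in the first of them. NTT had reads in 25 of 34 QC/columella-like nuclei (73.5%, exact 95% binomial interval 55.6 to 87.1%) and in 75 of 127 suspensor-like nuclei (59.1%, 50 to 67.7%). WIP4 had reads in 28 of 34 QC/columella-like nuclei (82.4%, 65.5 to 93.2%) and in 56 of 127 suspensor-like nuclei (44.1%, 35.3 to 53.2%). WIP5 had reads in 10 of 34 QC/columella-like nuclei (29.4%, 15.1 to 47.5%) and in 1 of 127 suspensor-like nuclei (0.787%). By plate, the QC/columella-like and suspensor-like shares overlapped for NTT (0 to 100% against 25 to 70%) and for WIP4 (60 to 100% against 16.7 to 76.9%). The intervals take account of counting error alone, as they treat nuclei of the same plate as independent. In these libraries without molecular tags, several reads can also stem from 1 molecule.

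The other named embryonic classes had few nuclei with reads. In the 167 embryo-proper-like nuclei, which join the protoderm-, vascular- and dividing-like classes, NTT had reads in 9 (5.39%), WIP4 in 6 (3.59%) and WIP5 in 3 (1.8%). None of the 35 vascular-like nuclei had reads of any member, which allows a share of nuclei with reads of up to 8.57% each (3 nuclei of 35; exact 95% upper bound 10%). Seed-coat-like nuclei, from maternal tissue, served as background. BAN, a seed coat pigment gene, had reads in 92.1% of seed-coat-like and 67% of embryonic nuclei outside the QC/columella-like class, and where the latter reads came from was not tested. NTT had reads in 10.5% of seed-coat-like nuclei (4 of 38), WIP4 in 15.8% (6 of 38) and WIP5 in 5.26% (2 of 38), at a median depth of 781870 counts against 457198 in QC/columella-like nuclei. The shares in embryo-proper-like nuclei lay below these, whereas after thinning to 100000 counts that of WIP5 lay above (1.8% against 0%). All 4 seed-coat-like nuclei with NTT reads were on plate 4.

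**Figure D1:**
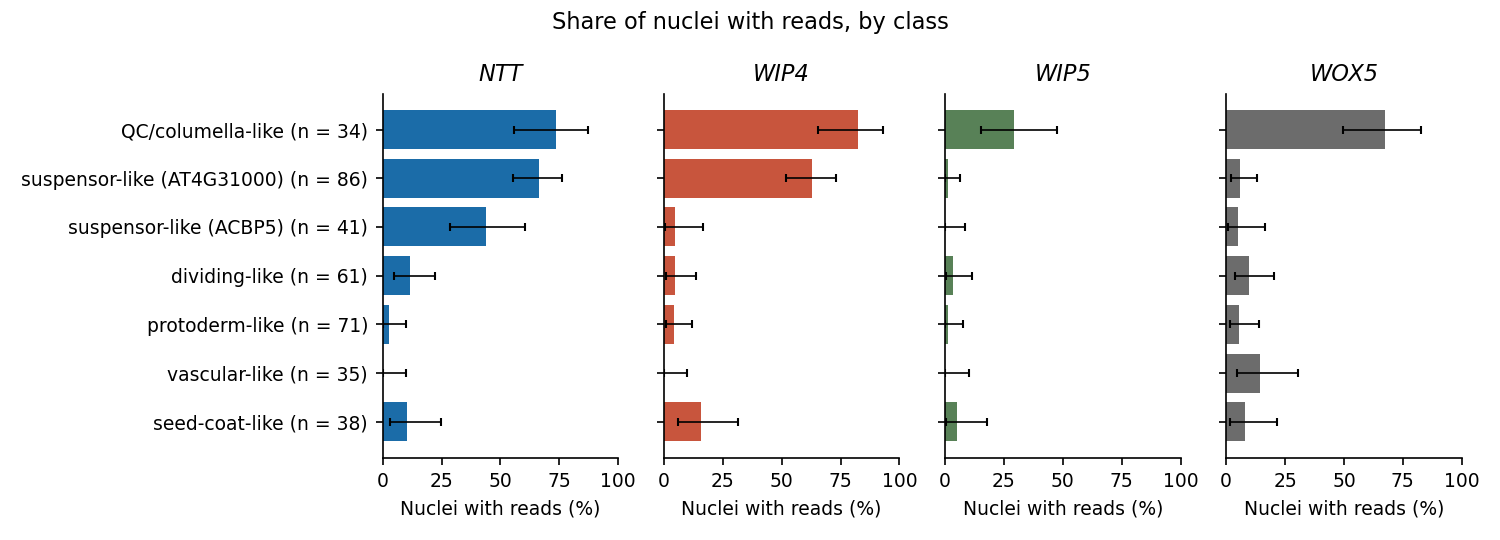
Share of nuclei with at least 1 read of NTT, WIP4, WIP5 and WOX5 (x axes, percent) in each named class or cluster (y axis, with the number of nuclei); bars give the share and lines its exact 95% binomial interval. NTT reached 73.5% and WIP4 82.4% of QC/columella-like nuclei, and WIP5 29.4%, while the vascular-like class had no nucleus with reads of the 3 WIP genes.

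Of all 135 nuclei with NTT reads, 55.6% were suspensor-like and 18.5% QC/columella-like, and of the 116 with WIP4 reads 48.3% and 24.1%. For WIP5 the order was turned, with 52.6% of its 19 nuclei QC/columella-like and 5.26% suspensor-like. QC/columella-like nuclei made up 6.37% and suspensor-like nuclei 23.8% of those retained. Of the 168 nuclei in unnamed clusters, 22 had NTT reads, 20 had WIP4 reads and 3 had WIP5 reads. Most of the former 2 groups fell in the cluster led by DML3, in which NTT had reads in 26.2% and WIP4 in 24.6% of 61 nuclei. Its leading genes DML3, YUC3, AT3G01516 and SYTC were also among those of the suspensor-like cluster led by AT4G31000. Its suspensor markers did not lead, with a mean log2 difference of 0.02 and 1 of 10 higher by 10 percentage points.

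Counting depth moved with detection. Nuclei with NTT reads had a median of 522787 counts and 3237 features, against 417837 and 2258 without. For WIP4 the medians were 508346 and 427539 counts. With each nucleus thinned to 100000 counts, the QC/columella-like shares were 70.6% for NTT, 79.4% for WIP4 and 26.5% for WIP5, and the suspensor-like shares 54.3%, 40.9% and 0.787%. With total counts matched, though not the number of features, each member's QC/columella-like share still lay above its suspensor-like share in these classes. For NTT the order turned, without thinning, with classes by marker score (41.7% against 61.9%) and at doubled clustering resolution (55.4% against 57%).

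Levels were computed as CPM, the counts of a gene in the summed nuclei of a class on a plate, scaled to the same total of nuclear gene counts for each sum. In such sums, fewer nuclei with reads and fewer reads in each nucleus cannot be told apart, so the shares above stand beside them. In QC/columella-like nuclei, NTT lay at 0 on plate 5 and at 68.2 to 846 CPM on the other plates, with a median of 180 and a mean of 236 ± 264 (SD, n = 8 plates). In suspensor-like nuclei NTT ranged from 214 to 663 CPM, with a median of 331 and a mean of 382 ± 151. The ranges of the 2 classes overlapped widely, and a single plate, plate 2, gave the highest QC/columella-like value. In embryo-proper-like nuclei NTT ranged from 0 to 42.1 CPM, with a median of 12.3, so that every plate's value lay under every suspensor-like value.

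Among the named classes WIP4 had its highest mean in QC/columella-like nuclei, where it ranged from 377 to 1650 CPM with a median of 710 and a mean of 816 ± 396. In suspensor-like nuclei it ranged from 125 to 1130 CPM, with a median of 285 and a mean of 428 ± 362. These ranges overlapped. In embryo-proper-like nuclei WIP4 was at 0 on 5 plates and reached 248 CPM on plate 1, the latter mostly from 1 dividing-like nucleus with 3345 WIP4 counts. In seed-coat-like nuclei it was at 0 on 4 plates and at most 80.8 CPM. The unnamed cluster led by DML3 ran from 0 to 2760 CPM, with a mean of 764 ± 1010.

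WIP5 was the most uneven. In QC/columella-like nuclei it was at 0 on plates 3 and 5, and its median over plates was 23.2 CPM with a highest value of 740 on plate 6 and 475 on plate 2. The mean of 170 ± 281 CPM therefore rested on 2 plates. In suspensor-like nuclei it was at 0 on every plate but plate 3, where 1 nucleus with 552 counts gave 57.1 CPM. It had no reads on plate 5 in any class.

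**Figure D2:**
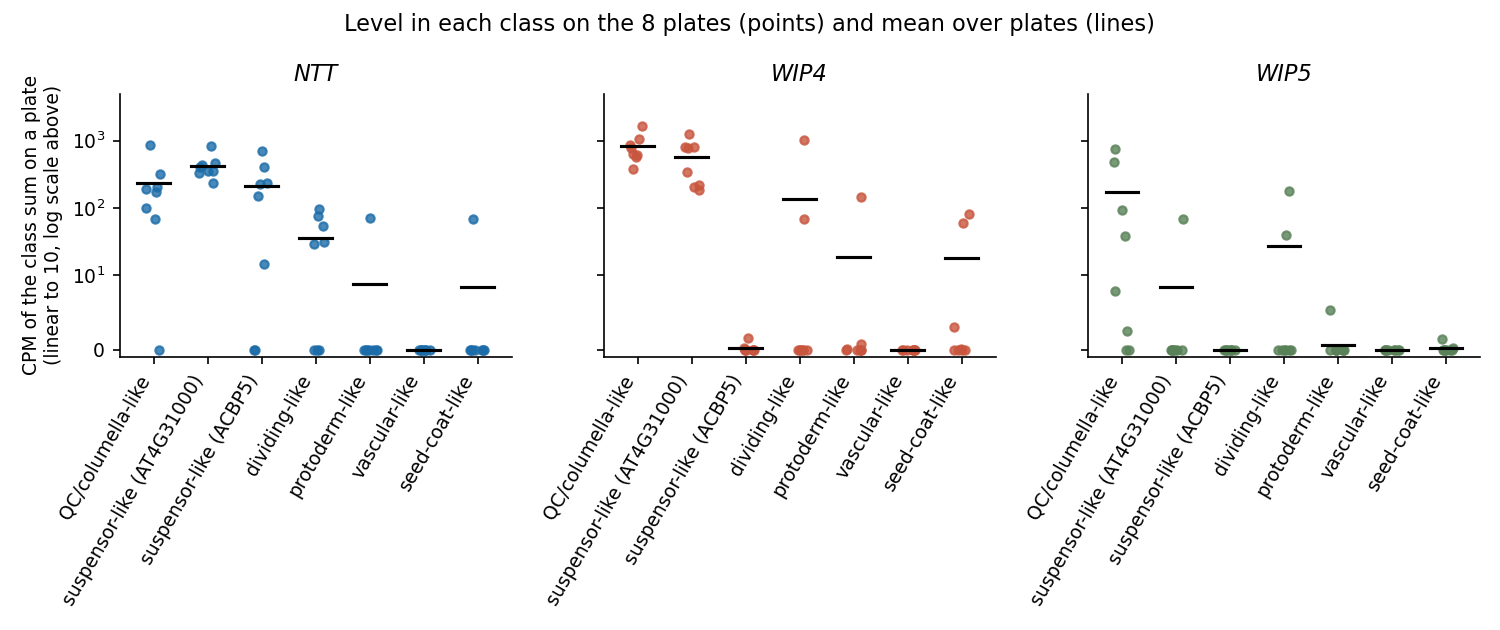
CPM of NTT, WIP4 and WIP5 (y axis, linear up to 10 and logarithmic above) in the summed nuclei of each named class or cluster (x axis); each point is 1 of 8 plates and the line is the mean over plates. WIP4 lay between 377 and 1650 CPM in QC/columella-like nuclei on all plates, and WIP5 varied there from 0 to 740 CPM.

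Dividing by transcript length allows the members to be set against each other. Per kilobase, the level in QC/columella-like nuclei was 526 ± 255 CPM for WIP4, 131 ± 147 for NTT and 130 ± 216 for WIP5 (mean ± SD over 8 plates). In suspensor-like nuclei it was 276 ± 233 for WIP4, 212 ± 84.1 for NTT and 5.48 ± 15.5 for WIP5. WIP4 thus led NTT on the per-kilobase scale in the QC/columella-like class, while in the suspensor-like class the 2 differed by less than the spread of WIP4 between plates.

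The remaining family members had few reads. WIP1, known from the seed coat as TRANSPARENT TESTA 1, had reads in 33 retained nuclei and was most often detected in seed-coat-like nuclei (21.1%, 8 of 38), against 14.7% of QC/columella-like nuclei. WIP3 and WIP6 (AT1G13290) had reads in 1 nucleus each, with 6 and 52 counts.

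The first comparison asked whether the members were higher in QC/columella-like than in the 294 other embryonic nuclei. In each comparison, class sums of the 8 plates were fitted with edgeR's quasi-likelihood test with plate as a block, and every p was corrected across the whole set of tested genes (Benjamini-Hochberg), with a threshold of 0.05. The classes were built from other genes of the same nuclei, so these p-values take the grouping as given and are not independent evidence for it. Fitted log2 differences are not read as folds where sums on several plates are at 0. None of the 3 members passed, where 0.05% of 11992 genes tested were called higher and 19.9% lower, and 4558 genes had an unadjusted p under the threshold. DESeq2 called 2 of the 3 members, WIP4 and WIP5, where it called 0.327% of genes higher.

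WIP4 was 3.31-fold higher in QC/columella-like nuclei by the means over plates (816 ± 396 against 246 ± 209 CPM) and higher on 6 of 8 plates, with a fitted log2 difference of 1.88 (SE 0.80, edgeR adjusted p = 0.0732). WIP5 was higher on 6 of 8 plates (170 ± 281 against 8.53 ± 13.2 CPM), with a log2 difference of 6.56 (SE 2.65, edgeR adjusted p = 0.0589). NTT differed by less than its error (log2 difference -0.59, SE 1.11, edgeR adjusted p = 0.68). Among the other embryonic nuclei, 27591 of 28734 NTT counts and 25369 of 29475 WIP4 counts came from the suspensor-like class.

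The sums were of unequal size, and the part of this in the result was not tested. The median tested gene lay at -3.90 on the log2 scale, and at 0.15 when equal numbers of nuclei were drawn once from both sides of each plate. Relative to the median of -3.90, WIP4 was 5.78 higher, WIP5 10.46 higher and NTT 3.32 higher. These distances are not effect sizes, as NTT had a fitted log2 difference of -0.59 and was 1.23-fold higher by the means. In the draw with equal numbers, WIP4 passed the threshold (log2 difference 6.88, SE 1.49, edgeR adjusted p = 0.00995), where 0.0832% of 4808 genes were called higher, NTT did not (2.06, SE 2.07, edgeR adjusted p = 1), and WIP5 was too low to be tested. Leaving out plate 5 or plate 6 brought WIP4 past the threshold (edgeR adjusted p = 0.0364 and 0.0397), as leaving out plate 1 or plate 3 did for WIP5 (0.0299 and 0.0263). The fold for NTT turned from 1.23 to 0.822 without plate 2, and that for WIP5 ranged from 9.04 without plate 6 to 34.6 without plate 3.

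The QC/columella-like and suspensor-like classes both descend from the basal lineage, and were compared next. Neither NTT nor WIP4 passed, where 0.139% of 9343 genes were called higher and 4.56% lower in QC/columella-like nuclei. NTT was higher in suspensor-like nuclei on 7 of 8 plates, with a log2 difference of -1.55 (SE 1.01, edgeR adjusted p = 0.342). WIP4 was higher in QC/columella-like nuclei on 6 of 8 plates, with a log2 difference of 1.13 (SE 0.80, edgeR adjusted p = 0.38). The 2 genes thus leaned in opposite directions, without either difference exceeding its error enough to be called, and the difference between them was not tested.

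WIP5 did not reach the filter on low counts in this comparison. Fitted without the filter, where 0.0836% of genes were called higher, its log2 difference was 9.87 (SE 2.69, edgeR adjusted p = 0.0268), from 2253 counts in QC/columella-like and 552 counts in suspensor-like sums. Without plate 5, on which it had no reads, it passed the filter, with a log2 difference of 10.53 (edgeR adjusted p = 0.0126). All 552 suspensor-like counts came from a single nucleus, so that without plate 3 the suspensor-like sums were all at 0.

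Between the suspensor-like and the embryo-proper-like class, NTT and WIP4 both rose towards the suspensor. Of the 2 members tested 2 were called higher, where 4.18% of 12872 genes were called higher and 5.14% lower. NTT was 24.2-fold higher by the means (382 ± 151 against 15.8 ± 16.5 CPM), on 8 of 8 plates and without overlap, with a log2 difference of 5.87 (SE 1.22, edgeR adjusted p = 0.00259). WIP4 was 10.8-fold higher by the means (428 ± 362 against 39.6 ± 86.2 CPM), on 8 of 8 plates, with a log2 difference of 9.39 (SE 2.13, edgeR adjusted p = 0.00536). That fitted value lies far above the fold by the means, with embryo-proper-like sums of WIP4 at 0 on 5 plates. The WIP4 ranges overlapped through the value of 248 CPM on plate 1, and without plate 1 the fold was 45.5. WIP5 failed the filter, and without it showed a log2 difference of -1.74 (SE 1.45, edgeR adjusted p = 0.724).

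Dropping the plate block left NTT past the threshold and took WIP4 below it (log2 difference 3.09). With equal numbers of nuclei both were called, with log2 differences of 9.03 (SE 1.54) for NTT and 9.23 (SE 2.03) for WIP4, where 4.95% of genes were called higher.

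The suspensor-like class was not uniform for WIP4. It consisted of a cluster of 41 nuclei led by ACBP5 and a cluster of 86 nuclei led by AT4G31000, MEE26, YUC3 and SWEET12, and this comparison was chosen after its values were seen and is given with no test. WIP4 had reads in 2 of 41 nuclei of the first, 1 count in each, and in 54 of 86 (62.8%) of the second. By plate, the share was 0 to 25% (median 0) in the first and 41.7 to 100% (median 61.8%) in the second, without overlap. NTT had reads in 18 of 41 (43.9%) and 57 of 86 (66.3%) nuclei. Its shares by plate overlapped, at 0 to 80% and 25 to 76.9%, with the second cluster higher on 6 of 8 plates.

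The first cluster was the shallower, with a median of 419659 counts and 2471 features against 566232 and 3305. After thinning to 100000 counts, WIP4 had reads in 2.44% and 59.3% of the nuclei, with total counts but not the number of features matched. Of the 11 QC and columella markers, 8 had a higher share in the second cluster, among them AT1G80133 (47.7% against 0%) and PIN4 (25.6% against 2.44%), and of the 10 suspensor markers 6 did, among them MLP28 (68.6% against 2.44%). Their part in the WIP4 difference was not tested. The suspensor genes WOX8 and WOX9, homeobox genes of the basal lineage, had reads in 68.3% and 78% of the first cluster and in 84.9% and 32.6% of the second. Of the nuclei with NTT reads in the first cluster, 17 had NTT alone and 1 had WIP4 as well, whereas in the second cluster 36 nuclei had NTT with WIP4 and 20 had NTT alone.

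**Figure D3:**
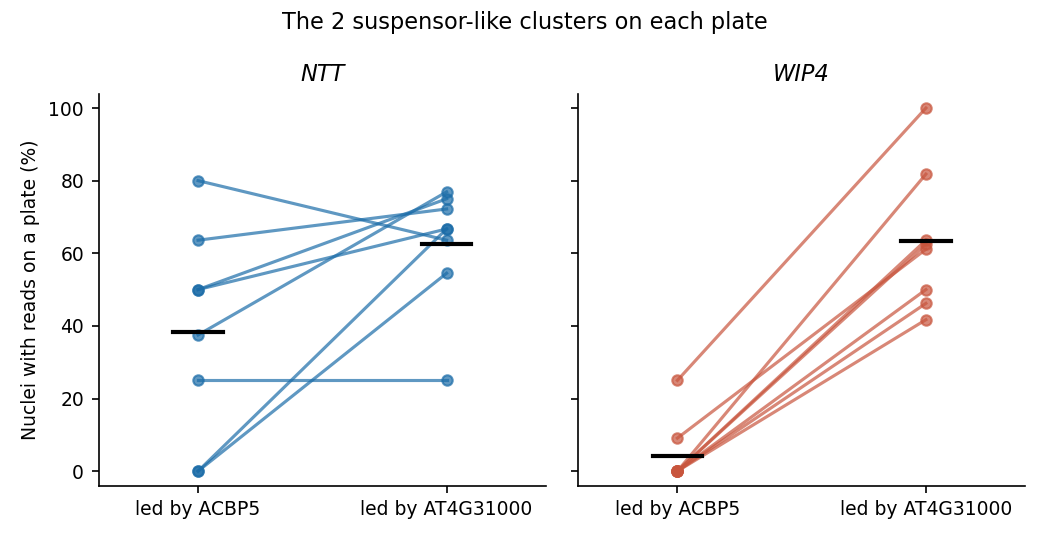
Percent of nuclei with reads of NTT (left) and WIP4 (right) in the suspensor-like clusters led by ACBP5 and by AT4G31000; each line joins the 2 values of 1 plate and black bars are means over 8 plates. WIP4 had means of 4.26% and 63.4% with every plate going the same way, while the NTT lines crossed.

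Seed-coat-like nuclei were compared with all 328 embryonic nuclei to measure the maternal background. NTT and WIP4 both fell in seed-coat-like nuclei, where 7.48% of 14313 genes were called lower and 1.6% higher. NTT had a log2 difference of -11.72 (SE 1.58, edgeR adjusted p = 3.03e-06) and was at 0 on 7 plates and at 67 CPM on plate 4, against 199 ± 96.6 CPM in embryonic nuclei. By the means over plates, NTT was 23.8-fold higher in embryonic nuclei, far less than the fitted value. WIP4 had a log2 difference of -8.78 (SE 1.57, edgeR adjusted p = 0.000233), with 18 ± 32.8 against 306 ± 185 CPM and lower values on 8 of 8 plates. The mean of 18 CPM rested on plates 4 and 7, and the embryonic mean was 17-fold higher with them, 36.6-fold higher without plate 4 and 27.8-fold higher without plate 7. With equal numbers of nuclei, no member had enough reads to be tested. WIP4 also lost its call when 1000 or 2000 variable genes were chosen by dispersion (edgeR adjusted p = 0.195 and 0.182), whereas NTT passed (0.0413 and 0.0363).

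WIP5 failed the filter here too, and fitted without it had a log2 difference of -8.18 (SE 2.95, edgeR adjusted p = 0.0814). Of the seed-coat-like nuclei with reads, 1 on plate 4 with 10839 features held 202 counts of NTT, 202 of WIP4, 1 of WIP5 and 299 of WOX5. The number of features in this well exceeded the class median of 5129, and whether it held more than 1 nucleus was not tested.

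A grouping that uses the clusters only to set seed-coat-like nuclei aside is the presence of WOX5 itself. Outside the seed-coat-like cluster, 57 nuclei had WOX5 reads and 439 had none. WIP4 was higher in WOX5-positive nuclei on 8 of 8 plates, with 340 to 1830 CPM (median 793) against 59.4 to 644 CPM (median 128). The ranges overlapped across plates, yet the mean was 3.82-fold higher (828 ± 456 against 217 ± 216 CPM), with a log2 difference of 2.24 (SE 0.51, edgeR adjusted p = 0.00393). WIP4 was the only 1 of the 3 members past the threshold, where 0.131% of 13742 genes were called higher and 6.57% lower.

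WIP5 was higher in WOX5-positive nuclei on 5 of 8 plates (116 ± 168 against 6.01 ± 11.4 CPM), with a log2 difference of 7.12 (SE 2.66, edgeR adjusted p = 0.0726). Without plate 7 it passed (log2 difference 8.84, edgeR adjusted p = 0.0483), and its fold of 19.3 by the means was 10.5 without plate 2 and 31.5 without plate 6. NTT differed by less than its error, at 226 ± 211 against 170 ± 60.9 CPM (log2 difference -0.20, SE 0.77, edgeR adjusted p = 0.88). The call of WIP4 was lost with equal numbers of nuclei (log2 difference 2.83, edgeR adjusted p = 0.129, with 0.0966% of genes called higher), within nuclei of named embryonic clusters alone (1.78) and without the plate block (1.85). The median tested gene lay at -2.56, and at 0.20 with equal numbers.

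The hypophysis and distal root pole list of 33 genes, which holds the auxin response, PIN, PLT, GRAS and cytokinin response genes of this pole, was set beside the members. By WOX5 presence, 0.131% of all genes tested were called higher and 6.57% lower. Of the 26 list genes tested there, 2 were called higher and 0 lower, with a list median of -1.42 against -2.56 over all genes. Those 2 were JKD, a zinc finger gene of the root stem cell niche, with a log2 difference of 3.46 (SE 0.57, edgeR adjusted p = 4.32e-06), and PIN4, with 2.75 (SE 0.68, edgeR adjusted p = 0.0081). Both were higher on 8 of 8 plates, and with equal numbers of nuclei JKD passed (edgeR adjusted p = 0.0286) and PIN4 did not (0.0604).

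Between QC/columella-like and other embryonic nuclei, 22 genes of the list were tested, of which PIN4 and JKD were higher and the MP target TMO3, PLT3 and the GATA factor gene HAN were lower, with a list median of -1.68 against -3.90. As several of these genes named or formed the class, this is a description only. Against embryo-proper-like nuclei, in the suspensor-like class the auxin exporter gene PIN7 and WOX8 were higher beside NTT and WIP4, and MP, TMO3, PLT1, SHR and HAN were lower, of 24 tested, with a list median of 0.10 against -0.15. Over all genes tested there, 4.18% were called higher and 5.14% lower. MP, the upstream factor, was at 210 ± 119 CPM in suspensor-like and at 427 ± 98 CPM in embryo-proper-like nuclei (log2 difference -1.47, SE 0.44, edgeR adjusted p = 0.0358). MP and these 2 members, NTT and WIP4, thus went in opposite directions between these classes, although the call of MP was lost with equal numbers of nuclei (edgeR adjusted p = 0.118). In seed-coat-like nuclei, 13 of 26 tested genes of the list were lower and 0 higher, with a list median of -5.36 against -1.40. Over all genes tested there, 7.48% were called lower and 1.6% higher.

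The members were often found in the same nuclei. For each of the 6 pairs among NTT, WIP4, WIP5 and WOX5, the nuclei with both genes were counted against the number expected from the shares on each plate, and the difference was tested over plates by an exact two-sided sign-flip permutation test. The smallest p that 8 plates allow is 0.00781. As WIP5 had no reads on plate 5, that plate adds nothing for its pairs, for which the smallest possible permutation p is 0.0156. NTT and WIP4 were found together in 71 nuclei where 30.8 were expected, a ratio of 2.3 (exact Poisson interval 1.8 to 2.9), above expectation on 8 of 8 plates (permutation p = 0.00781, adjusted over 6 pairs 0.0234). These 71 nuclei were 52.6% of those with NTT and 61.2% of those with WIP4.

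The highest ratio of observed to expected was that of WIP5 with WOX5. These 2 genes were found together in 13 nuclei where 2.36 were expected, a ratio of 5.5 (2.93 to 9.41), above expectation on 6 of 8 plates (permutation p = 0.0312, adjusted 0.0312). The 13 nuclei were 68.4% of those with WIP5 and 21.7% of those with WOX5. Larger shares of the nuclei with WIP5 had WIP4 (78.9%) and NTT (73.7%). WIP4 and WIP5 shared 15 nuclei against 4.21 expected (ratio 3.57, 2 to 5.88) and NTT and WIP5 shared 14 against 5.19 (ratio 2.7, 1.47 to 4.53), both with an adjusted permutation p of 0.0234. WIP4 and WOX5 shared 38 nuclei against 13.8 (ratio 2.75, 1.95 to 3.77, adjusted permutation p = 0.0234), and NTT and WOX5 shared 32 against 16.6 (ratio 1.93, 1.32 to 2.72, adjusted permutation p = 0.0281). The intervals of the 6 ratios overlapped in part, and differences between pairs were not tested.

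With 1 plate left out, the adjusted p of NTT with WOX5 stayed under 0.05 in 3 of 8 cases and that of WIP5 with WOX5 in 2 of 8, with ratios of 1.74 to 2.43 and of 4.69 to 6.11. The other 4 pairs passed in all 8 cases. With fewer plates the smallest p that the test allows is higher, so a lost call cannot be told apart from the loss of a plate.

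Within the QC/columella-like class, observed and expected numbers lay close together. Among the 34 QC/columella-like nuclei, NTT and WIP4 were found together in 20 where 20.6 were expected (ratio 0.969, 0.592 to 1.5), WIP5 and WOX5 in 8 where 8.03 were expected (0.996, 0.43 to 1.96), and the ratios of the 6 pairs ran from 0.958 to 1.16. In the suspensor-like cluster led by AT4G31000, NTT and WIP4 shared 37 nuclei against 35.5 expected (1.04, 0.734 to 1.44). High shares left little room for an excess in the QC/columella-like class, where NTT had reads in 25 nuclei and all 10 nuclei with WIP5 had WIP4. In the unnamed clusters the observed numbers exceeded the expected, with 8 nuclei against 2.82 for NTT and WIP4 (ratio 2.84, 1.23 to 5.59) and 6 against 1.67 for WIP4 and WOX5 (3.59, 1.32 to 7.81). These values within classes are given with no test.

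**Figure D4:**
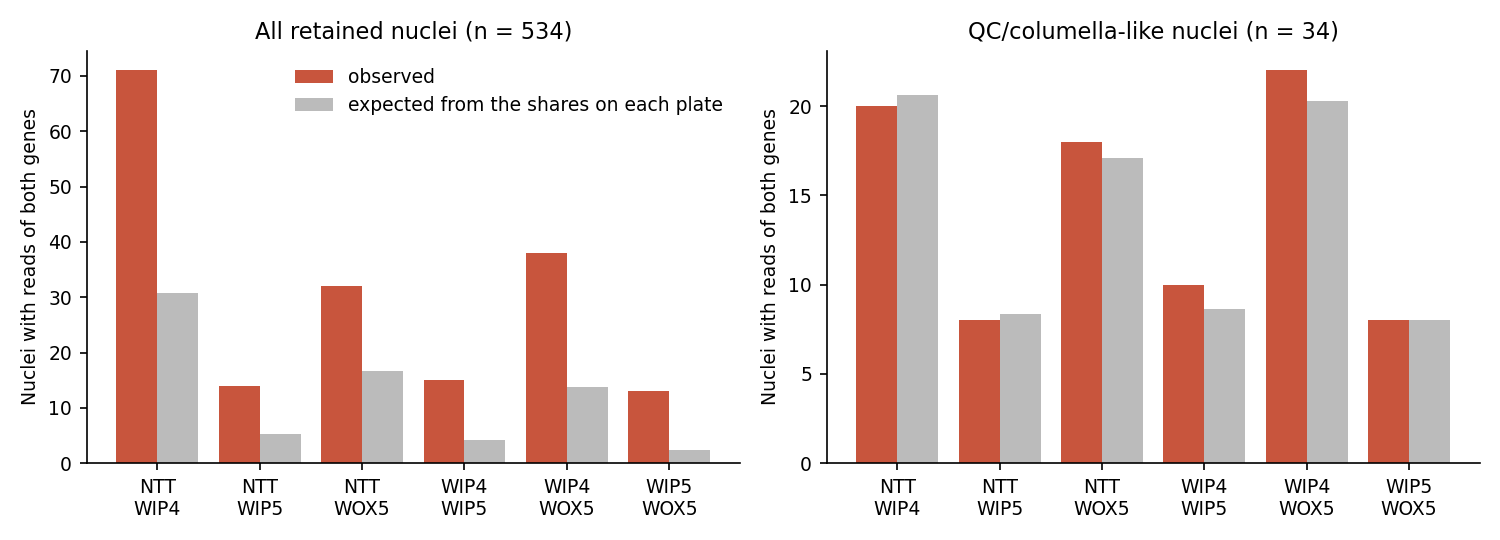
Number of nuclei with reads of both genes of a pair (y axis) observed, and expected from the share of each gene on each plate, over all 534 retained nuclei (left) and in the 34 QC/columella-like nuclei (right). Observed exceeded expected for each pair on the left (71 against 30.8 for NTT and WIP4), and the 2 bars lay close together for each pair on the right.

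The share of nuclei with WOX5 reads was higher the more members were detected, at 4.26% (15 of 352) with none, 15.1% (16 of 106) with 1, 31.2% (20 of 64) with 2 and 75% (9 of 12, exact interval 42.8 to 94.5%) with all 3. These shares are without thinning and pooled over plates. Nuclei with WOX5 reads were also deeper, with a median of 524152 counts against 437565 without, and the part of depth in this rise was not tested. Of the 12 nuclei with all 3 members, 8 were QC/columella-like. Of nuclei with a single member, those with WIP4 alone had WOX5 reads in 23.8% (10 of 42) and those with NTT alone in 8.06% (5 of 62). The suspensor-like nuclei went another way. There, 37 nuclei had NTT and WIP4 without WIP5, and 3 of these had WOX5 reads (8.11%), whereas of 12 such QC/columella-like nuclei 10 did (83.3%).

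**Figure D5:**
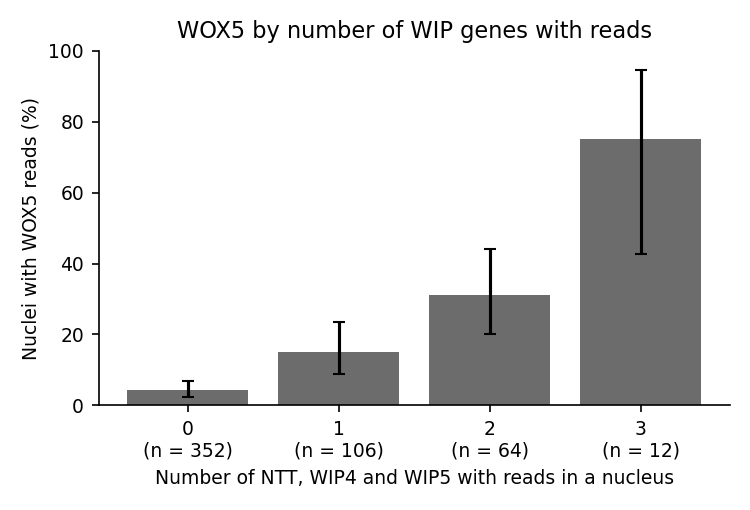
Percent of retained nuclei with WOX5 reads (y axis) by the number of the genes NTT, WIP4 and WIP5 with reads in the nucleus (x axis); lines are exact 95% binomial intervals. The share was 4.26% with none of the genes and 75% with all 3, the latter from 12 nuclei. Nuclei were not thinned to equal depth.

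In all, 33 of 34 QC/columella-like nuclei (97.1%) had reads of at least 1 member, as had 93 of 127 suspensor-like nuclei (73.2%) and 14 of 167 embryo-proper-like nuclei (8.38%). In QC/columella-like nuclei all 10 nuclei with WIP5 also had WIP4, and 8 of them had NTT. In the nuclei that shared 2 genes, the levels of WIP5 and WOX5 were correlated across 13 nuclei (Pearson r = 0.78, Spearman rho = 0.77 on log2 CPM), and for NTT and WIP4 the values over 71 nuclei were 0.096 and 0.077. These are descriptions over nuclei of 8 plates that share libraries and depth, with no test.

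The 19 nuclei with WIP5 reads varied from 1 to 931 counts. The highest, on plate 6, was QC/columella-like and held 931 counts of WIP5, 2364 of WOX5, 403 of WIP4 and 46 of NTT. The next, a dividing-like nucleus on plate 1, held 586 counts of WIP5, 2440 of WOX5 and 3345 of WIP4, with no NTT. The third, the suspensor-like nucleus on plate 3, held 552 counts of WIP5, 943 of NTT and 785 of WIP4, with no WOX5. A protoderm-like nucleus on plate 3 had 20 counts of WIP5 with 1826 of WOX5, 552 of WIP4 and 263 of NTT. Some nuclei outside the QC/columella-like class thus held WOX5 and WIP genes together, and the class shares above count them where the clustering put them.

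The genes most like each member were those with the highest Jaccard index, the nuclei with both genes over the nuclei with either, among 17858 genes in at least 10 retained nuclei. For NTT these were PUM21 (0.523), MEE26 (0.507), SFH3 (0.489), the response regulator gene ARR3 (0.489) and AT1G19410 (0.483). PUM21, the first of them, had reads in 73.5% of QC/columella-like and 42.5% of other embryonic nuclei, against 73.5% and 28.6% for NTT.

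For WIP4 they were MLP28 (0.467), AT5G37140 (0.462), ARR3 (0.456), AT1G80133 (0.453) and AT1G25530 (0.444). MLP28 is in the suspensor marker list and AT1G80133 in that of the QC and columella, and ARR3 was the 1 gene in the lists of both NTT and WIP4. For WIP5 they were AT3G25130 (0.286), AT3G02245 (0.207), AT4G11170 (0.206), DOF2 (0.204) and WOX5 (0.197). WIP4 was 57th in likeness to NTT (0.394) and NTT 13th to WIP4, and WIP4 was 56th to WIP5. These orders are descriptions over 534 nuclei, and for WIP5 they rest on 19 nuclei.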

How the data were processed

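The authors trimmed reads with cutadapt 2.6 and pseudoaligned them with kallisto to TAIR10 transcripts, and they deposited estimated counts per gene and well, all of them whole numbers, for 93 wells on each of 8 plates. kallisto's version was not given in the sources used here. The library protocol does not mark strand, and no well name was shared between plates. Libraries came from 1 sorted nucleus to a well, so no doublet caller was run. Nuclei with at least 100000 counts and 1000 features were retained. Counts of nuclear genes, 88.7% of all, were the base of CPM, and plates ranged from 21257765 to 50998340 counts, so that low shares carry wide intervals.

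Clustering used scanpy 1.11.5 with genes in at least 5% of nuclei, 1000 variable genes, 15 principal components, 15 neighbours and resolution 1, leaving out 7 genes (the 6 WIP genes and WOX5). Clusters were named from 86 markers in 8 classes where the markers of a class led by 0.5 on the log2 scale and at least 3 of them by 10 percentage points. No cluster took the shoot meristem or endosperm name. Of 6 settings tried, 1 was chosen after the shares of the members had been seen. The members, markers and gene lists were chosen with earlier results of these data known.

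Sums per class and plate were fitted with edgeR 4.0.16 (filterByExpr, TMM, plate as a block) in R 4.3.3, with SE taken as the log2 difference over the root of F. Two-sided tests were used throughout. The fit was also run on simulated data, in which as many genes were raised as lowered. The QC/columella-like comparison had far more genes called lower than higher, so the simulation does not vouch for the calls there. The block rests on the plate, since both sums of a pair came from the same plate. Alternatives were DESeq2 1.42.0, no filter, no block, stricter limits on nuclei, equal numbers of nuclei, thinning, 5 or more counts as detection, classes by marker score, other clusterings and each plate left out. Zeros allow a share of 3 counts of the total. Named genes were the members, the other WIP genes, WOX5, list genes past the threshold and the 5 genes most like each member. Genes that lead a cluster, markers of the classes and the WIP5-positive nuclei were named after their values were seen.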

Additional observations from a re-analysis of the deposited data

Results flagged for a closer look

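In 15 sets of values by plate, 1 plate stood apart from the other 7 in 6 sets, where chance gives about 1 in 20 for sets without many zeros. Where the other plates were at 0, reads in a single nucleus were enough for a plate to stand apart. NTT in QC/columella-like nuclei reached 846 CPM on plate 2, with the next plate at 315. NTT in seed-coat-like nuclei was at 67 CPM on plate 4 and at 0 on the others. WIP4 in embryo-proper-like nuclei reached 248 CPM on plate 1, with the next at 54.9. WIP5 stood apart in suspensor-like nuclei with 57.1 CPM on plate 3, in embryo-proper-like nuclei with 43.3 CPM on plate 1 and in seed-coat-like nuclei with 1.4 CPM on plate 7.

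The 210 wells below the limits on counts and features took no part in the comparisons and still held reads of the members. NTT had 2155 counts in 16 of them (7.62%), of which 1043 lay in 1 well, and WIP4 had 1174 counts in 20 (9.52%). WIP5 had 1 count in 1 well.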

How the results depend on the processing

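Across settings, the rise of NTT and WIP4 from embryo-proper-like to suspensor-like nuclei and their fall in seed-coat-like nuclei passed with each plate left out. In the comparison of QC/columella-like with other embryonic nuclei, 0 members passed as reported, 2 with DESeq2 and with 2000 variable genes by Cell Ranger's rule, and 1 with equal numbers of nuclei, resolution multiplied by 2, 1000 or 2000 variable genes by dispersion and classes by marker score (0 to 1 with a plate left out). NTT changed sign there with equal numbers (2.06), doubled resolution (0.96), 2000 genes by dispersion (0.63) or by Cell Ranger's rule (0.58) and marker scores (0.56), and ranged from -0.94 to -0.17 with a plate left out. WIP4 passed at 2.27 (DESeq2), 6.88 (equal numbers), 3.10 (doubled resolution), 2.42 and 2.21 (2000 genes by dispersion and by Cell Ranger's rule) and 1.73 (marker scores), with 1.52 to 2.22 over plates left out. WIP5 passed at 9.07 (DESeq2), 6.30 (1000 genes by dispersion) and 6.32 (2000 genes by Cell Ranger's rule), with 5.26 to 7.88. Against suspensor-like nuclei 1 member passed without the filter, with DESeq2 and with doubled resolution (0 to 1 over plates left out). Towards the suspensor-like class, 1 member passed with 2000 genes by Cell Ranger's rule, WIP4 being at 2.61. In seed-coat-like nuclei 0 passed with equal numbers, where none could be tested, and 1, NTT, with 1000 or 2000 genes by dispersion. By WOX5, 2 members passed with DESeq2 (WIP5 at 7.06), and 0 with equal numbers (WIP4 at 2.83) or in named clusters alone (WIP4 at 1.78). Over plates left out it was 1 to 2 members, with NTT at -0.50 to 0.21, the latter without plate 5, and WIP5 at 5.05 to 8.84. Of 6 pairs 4 to 6 passed. By marker scores, the QC/columella-like shares were 41.7% for NTT and 52.8% for WIP4. DESeq2 called 57 genes higher and 7754 lower in QC/columella-like against other embryonic nuclei (edgeR 6 and 2387), 207 and 4771 against suspensor-like nuclei (13 and 426), 2399 and 2518 towards the suspensor-like class (538 and 661), 884 and 4887 in seed-coat-like nuclei (229 and 1070) and 81 and 6701 by WOX5 (18 and 903). The 3 other clusterings were added after seeing the data, and apart from what is stated the causes were not tested.

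Without the replicate block, NTT was at 0.07 in QC/columella-like nuclei and 0.35 by WOX5, 1 member, NTT, passed towards the suspensor-like class, with WIP4 at 3.09 below the threshold, and 0 passed by WOX5, WIP4 being at 1.85. It changed no other call.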
